A study of Laodelphax striatellus with 6 samples.

Results

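The genes described here code for the mitochondrial ribosome and for the machinery that brings proteins into mitochondria, in whole bodies of the small brown planthopper Laodelphax striatellus, a sap-feeding pest of rice. They were chosen by the wording of the protein description: mitochondrial ribosomal proteins, subunits of the import translocases of the outer (TOM) and inner (TIM) membrane, the mitochondrial-processing peptidase, and descriptions naming prohibitin. The wording found 45 of the 59004 assembled genes (rows) in the table, of which 25802 carry a description. The wording itself uses no measured value, but it was chosen with earlier results of these data known. Poly(A) RNA of whole wild-type insects was sequenced in 3 libraries from untreated controls and 3 from insects given β-asarone, which is a phenylpropanoid made by plants, to study detoxification. Both groups share the WT genotype. The labels give no dose, time of exposure, age, stage or sex, and do not tell whether libraries of 1 group came from separate insects, so the spread between libraries may be technical.

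Mitochondria keep a small genome, and their ribosome makes the few hydrophobic respiratory-chain subunits coded there. All proteins of that ribosome, and nearly all other mitochondrial proteins, are made in the cytosol and imported. Precursors bind receptors of the TOM complex and pass its pore. Those with a cleavable presequence go through the TIM23 complex, are pulled in by a motor and are cut by the processing peptidase, while small Tim chaperones carry membrane proteins across the space between the membranes to the TIM22 complex. Insect flight muscle is rich in mitochondria, and a whole-body library mixes it with all other tissues. In such bulk samples fewer cells of a type and less RNA per cell cannot be told apart.

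The 45 rows were 8 proteins of the large ribosomal subunit, 11 of the small subunit, 4 of the TOM complex, 17 of the TIM complexes, 4 of the processing peptidase and 1 that matched the word prohibitin. That 1 row is described as genetic interactor of prohibitins 3, a protein named in budding yeast, so no row described as a prohibitin itself was found by the wording. The best protein match was in the brown planthopper Nilaparvata lugens for 25 rows. The other 20 rows had best matches in 19 other genera, among them corals, a sponge, mites, a sea squirt and several insects. Whether these rows are the planthopper's own genes or come from another organism was not tested. None had its best match in Laodelphax striatellus. Of the 15038 rows matched to that species, 14710 are described only as hypothetical protein. The set is the portion of these machineries that carries a name. Further subunits may sit among unnamed rows, which was not checked. Here and below, a planthopper match is a best match in the genus Laodelphax, Nilaparvata or Sogatella. A best match in any other genus, also in another planthopper such as Chloriona, counts as a match outside planthoppers. The files hold no sequences, so none is shown.

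Values are TPM, each row's length-corrected share of a library scaled to the same total in every library, so levels can be compared between genes. Read depth cannot be recovered from TPM, and counting intervals are therefore left out. A pair of libraries stood apart. Control replicate 2 had a median of 2.23 TPM over the tested rows, while the other 5 libraries had 2.85 to 3.37 TPM, and asarone replicate 2 held 560 rows found in it only, against 100 to 228 in the others. The whole body was checked by tissue markers: muscle rows summed to 1902 to 2896 TPM, cuticle rows to 3022 to 11226 TPM, gut rows to 102 to 127 TPM, nerve rows to 8.60 to 22.7 TPM, and sperm and cilium rows to 8.59 to 20.8 TPM. The 2 rows described with vitellogenin, for fat body and yolk, summed to only 1.17 to 2.27 TPM. The ranges of the control and asarone libraries overlapped for each of these sums, and their part in the results was not tested.

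The transcript of the catalytic subunit of the processing peptidase was the most abundant of the 45 in every library, followed in every library by that of the small TOM subunit TOM7. Of the 10 ribosomal proteins matched to the planthopper Nilaparvata lugens 9 stood close together, at means of 16.5 to 29.9 TPM, and rows matched to other animals mostly stood far lower. None of the 43 tested rows passed the threshold between treated and control insects. Of the rows with a Nilaparvata lugens match, 18 of 25 averaged at least 10 TPM over the 6 libraries. Of the 20 other rows, 2 did so and 13 averaged under 3 TPM.

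**Figure D1:**
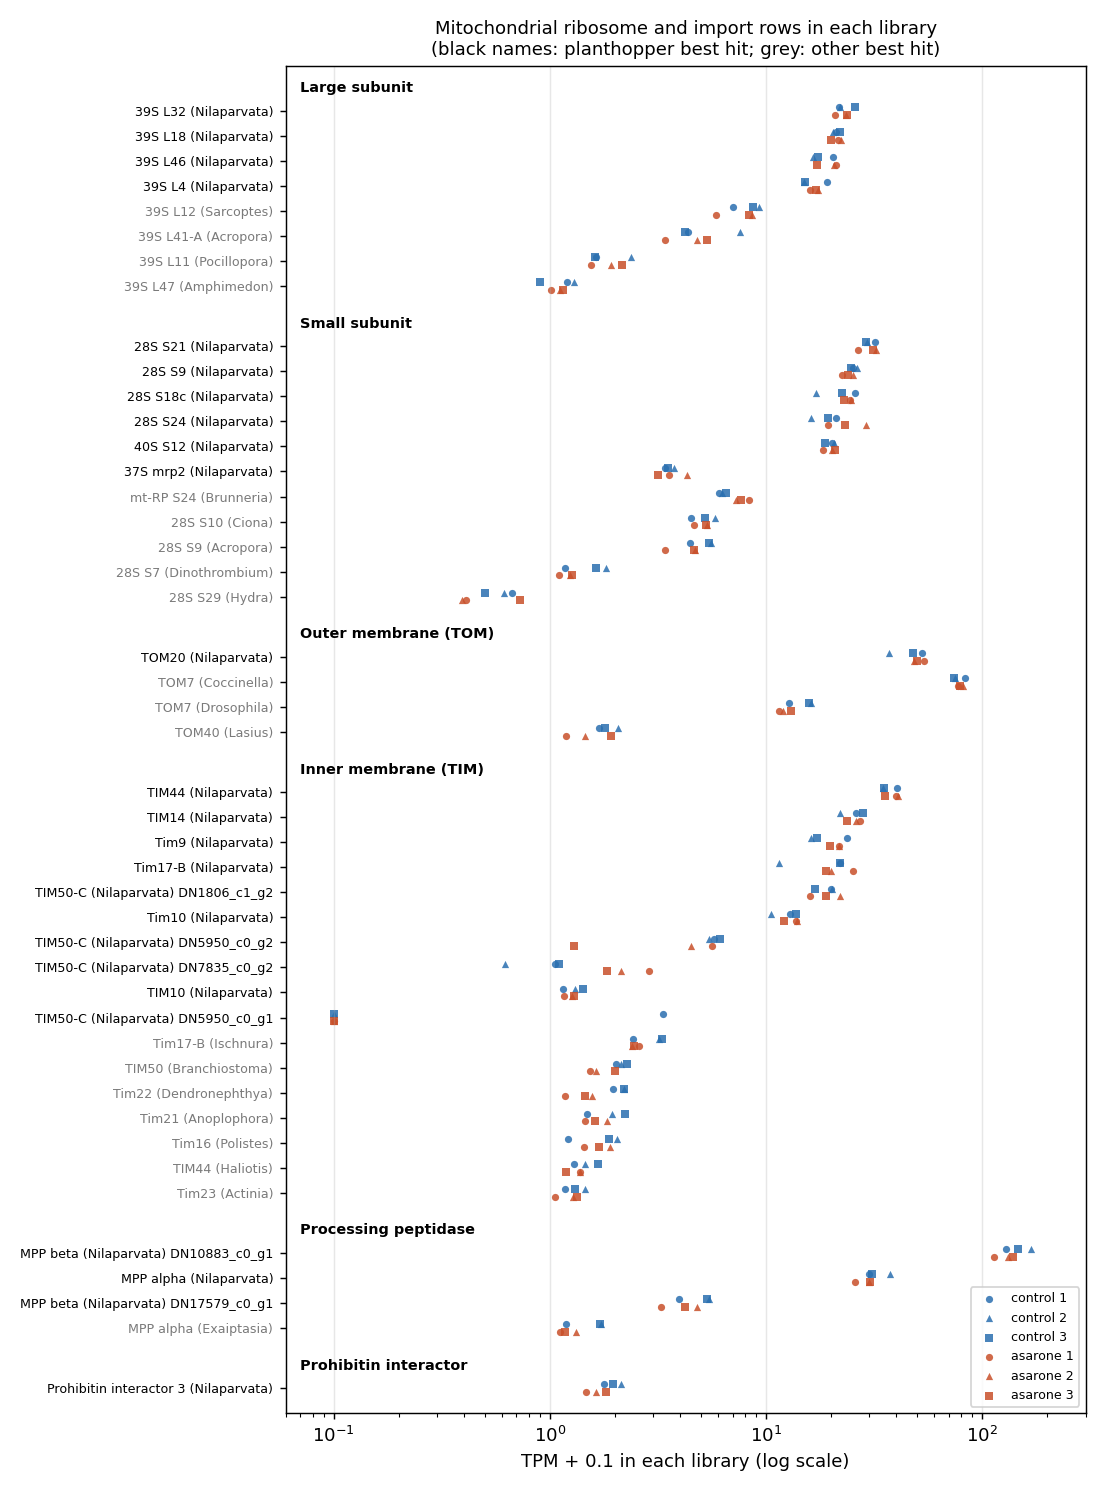
Level of each of the 45 rows in each library, as TPM + 0.1 on a log axis, with control libraries in blue and asarone libraries in red, and with rows grouped by role. Rows matched to Nilaparvata lugens (black names) mostly stand above 10 TPM, rows matched to other animals (grey names) mostly below 3 TPM, and the colours overlap in nearly every row.

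In the large subunit, which joins amino acids into protein, the 4 planthopper rows stood within a narrow band of 14.9 to 25.6 TPM over all libraries. The 39S protein L32 (TRINITY_DN8307_c0_g1), which in yeast and mouse is trimmed by an inner-membrane protease before it enters the ribosome, was at 21.6, 22.0 and 25.6 TPM in controls 1, 2 and 3 and at 20.7, 23.4 and 23.6 TPM in asarone libraries 1, 2 and 3. L18 (TRINITY_DN390_c0_g2) averaged 21.01 ± 0.789 TPM in control libraries and 21.09 ± 1.16 TPM in asarone libraries (here and below SD, n = 3). The groups overlapped for both, and L18 had the smallest within-group coefficient of variation of the 43 tested rows, 4.71%. The median was 11.2% over the 24 tested planthopper members. It was 28.7% over all tested rows, whose median level was only 2.86 TPM, and spread depends on level. L46 (TRINITY_DN1929_c0_g1), a protein particular to mitochondrial ribosomes, was at 17.97 ± 2.08 and 19.5 ± 2.12 TPM. L4 (TRINITY_DN32510_c0_g1), which lines the tunnel for the new chain in all ribosomes, was at 16.3 ± 2.31 and 16.7 ± 0.764 TPM. Neighbours in this order of levels overlapped in range, so their order is not firm.

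The 4 large-subunit rows with other best matches were lower and more spread, at 0.800 to 9.14 TPM. L12 (TRINITY_DN50546_c0_g1, matched to the itch mite Sarcoptes scabiei), of the stalk that binds elongation factors, was at 6.92, 9.14 and 8.60 TPM in controls and at 5.78, 8.48 and 8.24 TPM in asarone libraries. L41-A (TRINITY_DN29650_c0_g1, matched to the coral Acropora millepora) ranged from 3.31 to 7.43 TPM. L11 (TRINITY_DN51146_c0_g1, a coral match), at the base of the stalk, averaged 1.77 TPM in each group. All 4 of these rows had their highest value in control replicate 2, whereas none of the 4 planthopper rows did. The least abundant large-subunit row, L47 (TRINITY_DN48860_c0_g1, matched to a sponge), averaged 1.01 TPM over the 6 libraries. Large-subunit rows together made up 94.6 ± 0.970 TPM in control libraries and 94.6 ± 4.48 TPM in asarone libraries (SD, n = 3).

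The small subunit, which reads the messenger RNA, had 6 planthopper rows, of which 5 averaged 19.7 to 29.9 TPM. S21 (TRINITY_DN4630_c0_g2) was the most abundant, at 31.7, 29.1 and 29.0 TPM in controls and at 26.4, 32.0 and 31.0 TPM in asarone libraries. S9 (TRINITY_DN941_c0_g1), whose tail reaches the peptidyl site in bacterial ribosomes, was at 25.3 ± 0.933 and 23.7 ± 1.45 TPM. S18c (TRINITY_DN4829_c0_g1) was at 21.6 ± 4.45 and 23.9 ± 1.04 TPM, with its lowest value, 16.8 TPM, in control replicate 2. For all 3 the groups overlapped. S12 (TRINITY_DN1790_c0_g2), of the decoding centre, is described as a 40S protein but as mitochondrial, and stood at 19.7 ± 0.982 and 19.7 ± 1.28 TPM. The 63 tested rows of cytosolic ribosomal proteins with a planthopper match averaged 8.02 to 2238 TPM, with a median of 721 TPM. The exception among planthopper rows was the 37S protein mrp2 (TRINITY_DN780_c0_g1), named after a yeast small-subunit protein, at 3.46 ± 0.168 and 3.57 ± 0.579 TPM.

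The mitochondrial protein S24 was present as a pair of rows. The planthopper row (TRINITY_DN3555_c0_g1) was at 20.9, 15.99 and 19.2 TPM in controls and at 19.3, 28.9 and 23.0 TPM in asarone libraries, so the groups overlapped. The row matched to the mantis Brunneria borealis (TRINITY_DN16294_c0_g1) was at 5.92, 6.15 and 6.42 TPM in controls and at 8.19, 7.12 and 7.56 TPM in asarone libraries. Every asarone value of this row lay above every control value. Its log2 change was 0.27 with an SE of 0.13, and it did not pass (limma, unadjusted p = 0.091, adjusted p = 0.98). S24 is the mitochondrial counterpart of a protein at the messenger RNA entry of bacterial ribosomes. Of the other small-subunit rows without a planthopper match, S10 (TRINITY_DN3740_c0_g1, matched to a sea squirt) averaged 5.03 TPM and a row of S9 (TRINITY_DN51437_c0_g1, matched to a coral) 4.59 TPM. The least abundant were S7 (TRINITY_DN37328_c0_g1, matched to the mite Dinothrombium tinctorium), a protein of the subunit's head, at 1.27 TPM, and the GTP-binding S29 (TRINITY_DN7955_c0_g2, matched to Hydra vulgaris), at 0.452 TPM, below the mean of 1 TPM needed for the test. Small-subunit rows together made up 137 ± 5.51 TPM in control libraries and 143 ± 11.2 TPM in asarone libraries (SD, n = 3).

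At the outer membrane, TOM20 (TRINITY_DN3564_c0_g1), the receptor for presequences, was at 52.4, 36.9 and 47.9 TPM in controls and at 53.9, 48.1 and 49.8 TPM in asarone libraries. The groups overlapped, and control replicate 2 was the lowest. TOM7 (TRINITY_DN4381_c0_g1, matched to the ladybird Coccinella septempunctata), a small subunit of the pore complex, was at 83.5, 74.7 and 74.0 TPM in controls and at 76.9, 81.2 and 79.1 TPM in asarone libraries. Its lowest value lay above the highest of TOM20, and its highest lay below the lowest of the peptidase beta subunit. A further TOM7 row (TRINITY_DN14977_c0_g1, matched to Drosophila willistoni) was at 12.7, 16.1 and 15.7 TPM in controls and at 11.4, 11.8 and 13.0 TPM in asarone libraries, with 1 asarone value above the lowest control. The only row named for the pore itself, TOM40 (TRINITY_DN50230_c0_g1, matched to the ant Lasius niger and described as partial), was at 1.75 ± 0.201 and 1.42 ± 0.370 TPM. The source of this row, and of the Tim16, Tim21, Tim22 and Tim23 rows below, was not tested. Their levels therefore need not be those of the planthopper's own subunits.

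At the inner membrane the planthopper rows of the import motor were the most abundant. TIM44 (TRINITY_DN21648_c0_g1), which anchors the motor's chaperone to the channel, was at 40.03, 34.7 and 35.1 TPM in controls and at 39.97, 40.6 and 35.5 TPM in asarone libraries. TIM14 (TRINITY_DN4098_c0_g1), the J-protein that stimulates that chaperone, was at 25.3 ± 3.15 and 25.5 ± 1.87 TPM. The groups overlapped for both, and TIM44 exceeded TIM14 in each library, by 1.25 to 1.59 times. TIM14's partner Tim16 (TRINITY_DN52926_c0_g1, matched to a paper wasp) was at 1.61 ± 0.442 and 1.57 ± 0.230 TPM. Of the channel subunits, Tim17-B (TRINITY_DN1339_c0_g1) was at 21.8, 11.4 and 21.9 TPM in controls and at 25.2, 19.9 and 18.8 TPM in asarone libraries. The value in control replicate 2 was the lowest of the 6. Tim23 (TRINITY_DN49407_c0_g1, matched to a sea anemone), the channel's other subunit, averaged 1.17 TPM. Tim21 (TRINITY_DN34335_c0_g1, matched to the beetle Anoplophora glabripennis), which links the channel to the outer membrane and the respiratory chain, averaged 1.66 TPM.

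The small Tim chaperones of the intermembrane space were present as Tim9 (TRINITY_DN525_c0_g1) at 23.6, 15.96 and 17.0 TPM in controls and at 21.7, 21.7 and 19.6 TPM in asarone libraries, and as Tim10 (TRINITY_DN3274_c0_g1) at 12.3 ± 1.63 and 13.1 ± 0.995 TPM. These proteins form a ring together, and the ratio of Tim9 to Tim10 transcripts was 1.54 ± 0.293 in control libraries and 1.60 ± 0.0326 in asarone libraries. A further TIM10 row (TRINITY_DN21090_c0_g1) averaged 1.16 TPM. Both groups overlapped for all 3 rows. Tim22 (TRINITY_DN22878_c0_g3, matched to the soft coral Dendronephthya gigantea), the channel to which the small Tims deliver carriers, was at 1.85, 2.11 and 2.10 TPM in controls and at 1.08, 1.46 and 1.36 TPM in asarone libraries. Every asarone value lay below every control value. The log2 change was -0.40 with an SE of 0.16, and it did not pass (limma, unadjusted p = 0.049, adjusted p = 0.98).

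TIM50, the receptor of the inner-membrane channel, was split over 4 rows with one planthopper description and 1 row with another match. The main row (TRINITY_DN1806_c1_g2) was at 19.95, 19.98 and 16.8 TPM in controls and at 15.8, 21.9 and 18.9 TPM in asarone libraries. A weaker row (TRINITY_DN7835_c0_g2) was at 0.960, 0.520 and 1.00 TPM in controls and at 2.76, 2.03 and 1.74 TPM in asarone libraries. Every asarone value of this row exceeded every control value. Its log2 change, 0.80 with an SE of 0.21, was the highest of the 43 and had the smallest unadjusted p, but it did not pass (limma, unadjusted p = 0.00876, adjusted p = 0.98). In the remaining planthopper rows no asarone value exceeded the highest control value. One (TRINITY_DN5950_c0_g2) was at 5.62, 5.36 and 6 TPM in controls and at 5.53, 4.40 and 1.19 TPM in asarone libraries, with asarone replicate 3 apart. The other, of the same assembled cluster (TRINITY_DN5950_c0_g1), was listed at 3.24 TPM in control replicate 1 and at 0 in the other 5 libraries, and was not tested. Summed over the 4 rows, TIM50-C stood at 29.8, 25.9 and 23.8 TPM in controls and at 24.1, 28.3 and 21.8 TPM in asarone libraries, and the groups overlapped. Reads of near-identical rows can be split between them, so the single rows are uncertain. The row matched to a lancelet (TRINITY_DN50181_c0_g1) was at 2.04 ± 0.116 and 1.62 ± 0.240 TPM, without overlap (limma, unadjusted p = 0.223, adjusted p = 0.98). The TIM44 row matched to the abalone Haliotis rubra (TRINITY_DN49257_c0_g1) averaged 1.29 TPM, and the Tim17-B row matched to a damselfly (TRINITY_DN6999_c0_g1) 2.62 TPM.

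The processing peptidase, a pair of subunits that cuts presequences, had both in the planthopper set. The catalytic beta subunit (TRINITY_DN10883_c0_g1) was at 128, 169 and 146 TPM in controls and at 113, 131 and 139 TPM in asarone libraries. The substrate-binding alpha subunit (TRINITY_DN6742_c0_g1) was at 29.7, 37.3 and 30.7 TPM in controls and at 25.6, 29.7 and 30.2 TPM in asarone libraries. For each, the groups overlapped. Beta exceeded alpha by a steady factor, 4.33 to 4.75 over the 6 libraries, with means of 4.53 ± 0.211 in control libraries and 4.48 ± 0.116 in asarone libraries. A weaker beta row (TRINITY_DN17579_c0_g1) was at 4.81 ± 0.834 and 3.98 ± 0.782 TPM, and an alpha row matched to a sea anemone (TRINITY_DN41596_c0_g1) at 1.44 ± 0.3 and 1.10 ± 0.107 TPM. The genetic interactor of prohibitins 3 (TRINITY_DN4313_c0_g1) was at 1.85 ± 0.175 and 1.54 ± 0.175 TPM. All 5 rows had their highest value in control replicate 2 and their lowest in asarone replicate 1. Of all tested rows 10.2% were highest in control replicate 2 and 13.1% were lowest in asarone replicate 1. The same libraries stood out in other lists: 57.1% and 63.7% of the cytosolic ribosomal rows and 42.6% and 50.8% of the respiratory-chain rows did so. The 5 rows together made up 188 ± 25.3 TPM in control libraries and 163 ± 16.9 TPM in asarone libraries, a ratio of 0.865 that ranged from 0.814 (without control replicate 1) to 0.931 (without control replicate 2) on leaving out single libraries. The sums of the groups overlapped, and the main beta row, with a ratio of 0.865 by itself, made up most of each sum.

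Treated were compared with control insects to find genes that respond to β-asarone. Of the 45 rows, 43 passed the filter of a mean of at least 1 TPM, and 0 passed limma's test at an adjusted p of 0.05, where 0.00403% of all 24816 tested rows passed. The adjusted p-values of the 43 were 0.98 to 0.998. An unadjusted p under 0.05 was reached by 1 row on the higher side, TIM50-C (TRINITY_DN7835_c0_g2), and 1 on the lower side, Tim22. Over all tested rows 1.99% reached it on the higher and 1.47% on the lower side. Groups that did not overlap were found for 2 rows higher in treated insects (that TIM50-C row and the mantis-matched S24) and for 2 rows lower (Tim22 and the lancelet-matched TIM50), against 4.53% and 4.14% of all tested rows. These shares are near the background. The exact two-sided permutation test gave p = 0.1 for each of these 4 rows, the smallest that 3 against 3 libraries allow. The log2 change was below 0 for 27 of the 43 rows, against 37.2% of all tested rows, with a median of -0.02 against 0.08.

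**Figure D2:**
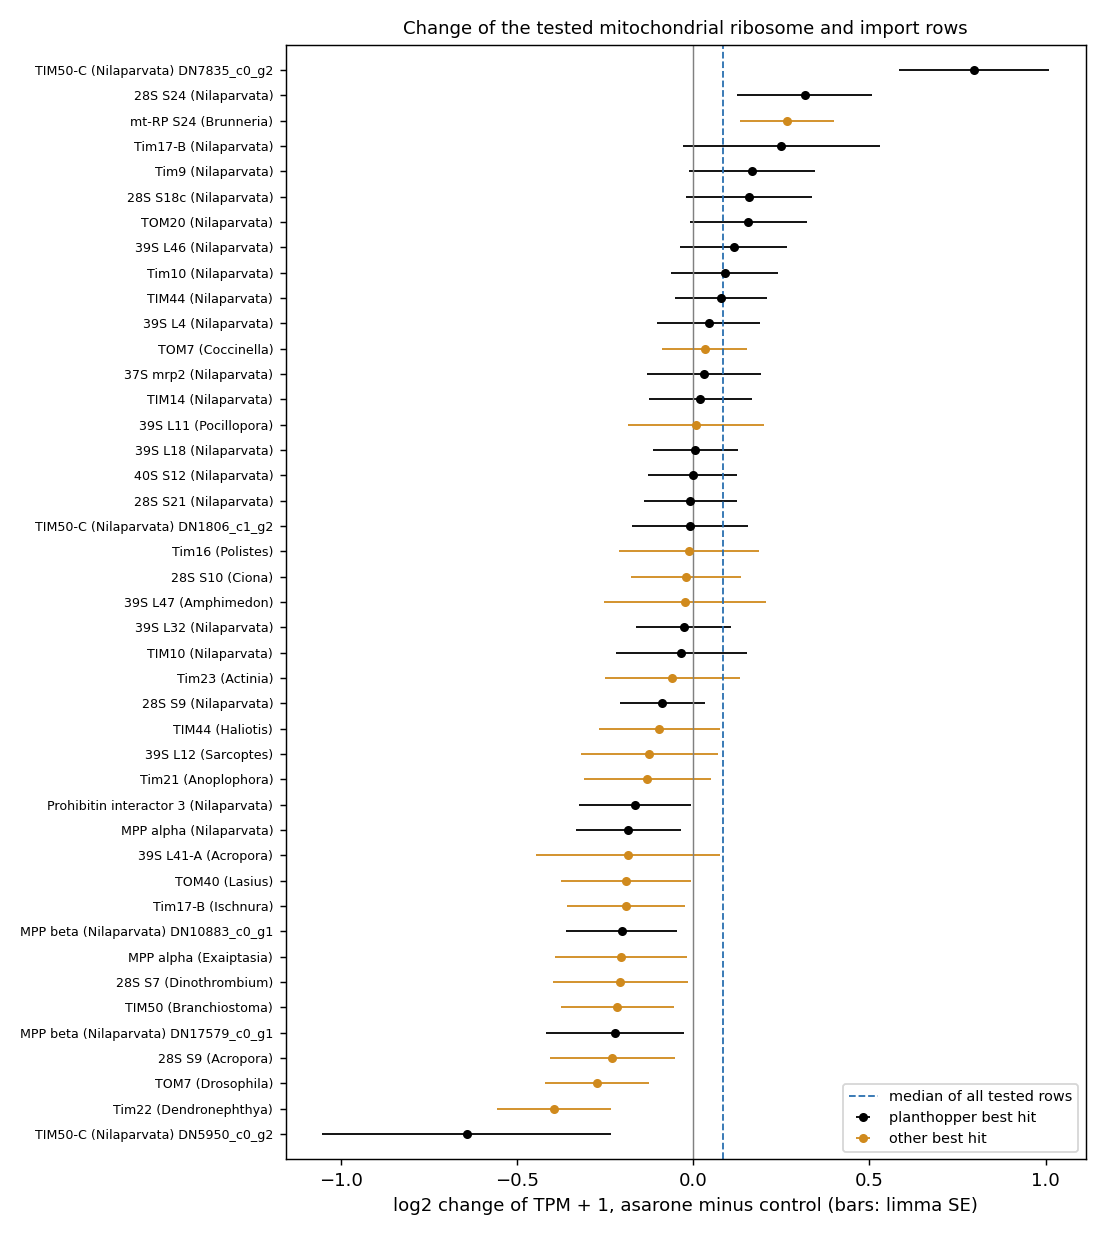
Log2 change of TPM + 1 from control to asarone libraries for each of the 43 tested rows, with limma's SE as bars and the median of all tested rows, 0.08, as a dashed line. Black rows, with a planthopper match, lie on both sides of 0, while 16 of the 19 orange rows, with another match, lie below 0.

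The changes are set out by best match, and the match classes were not tested against each other. Of the 24 tested planthopper rows 13 had a log2 change above 0 and 11 below, with a median of 0.01, while the median over all 12248 tested rows with a planthopper match was 0.10. Of the 19 tested rows with another match 16 were below 0, with a median of -0.13. The 2120 tested rows of the whole table with such a match had the same median, -0.13, and 71.2% of them were below 0. In the mitochondrial set, 13 of the 19 rows had their highest value in control replicate 2 (37.5% of the 2120 rows did) and 12 had their lowest in asarone replicate 1 (42.5% did). Expressed as the median deviation of log2(TPM + 1) from each row's mean, the 19 rows stood at -0.11, 0.20 and 0.13 in controls 1, 2 and 3 and at -0.17, 0.00 and 0.02 in asarone libraries 1, 2 and 3. The groups overlapped, because control replicate 1 lay below 2 of the asarone libraries. Relative to all tested rows, the median change of these rows was -0.22, and on leaving out single libraries it ranged from -0.41 (without control replicate 1) to -0.07 (without control replicate 2). The source of the rows matched to other animals was not tested.

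**Figure D3:**
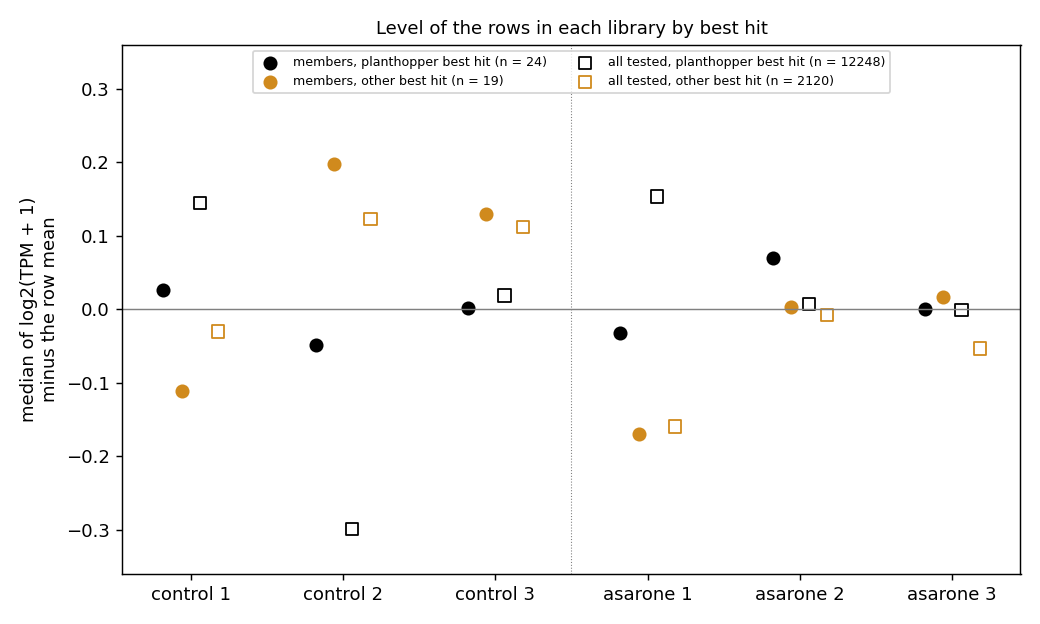
Median deviation of log2(TPM + 1) from each row's own mean in each library, for mitochondrial ribosome and import rows (filled circles) and all tested rows (open squares), by best match. The 19 members matched to other animals are highest in control 2 (0.20) and lowest in asarone 1 (-0.17), and the 24 planthopper members stay between -0.05 and 0.07.

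Single planthopper members varied between libraries, with Tim17-B at 11.4 to 25.2 TPM and the peptidase beta subunit at 113 to 169 TPM. Over the 24 planthopper members the median deviation was 0.03, -0.05 and 0.00 in controls 1, 2 and 3 and -0.03, 0.07 and 0.00 in asarone libraries, whereas all tested planthopper rows stood at -0.30 in control replicate 2 and at 0.15 in asarone replicate 1. The median within-group coefficient of variation was 11.2% for the 24 planthopper members and 23.7% for all tested planthopper rows. The former also had the higher level, with a median of 19.9 TPM against 4.52 TPM, and spread depends on level, so these medians describe the rows and were not tested against each other.

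Several proteins were present both as a planthopper row and as a row matched to another animal, which allows a ratio within each library. The planthopper row of TIM44 exceeded the abalone-matched row 22.5 to 33.6 times, and that of the peptidase alpha subunit exceeded the anemone-matched row 19.2 to 27.9 times. For S9 the ratio was 4.60 to 6.70, for Tim17-B 3.66 to 10.2, for the main TIM50 row 7.76 to 14.2, and for S24 2.35 to 4.06. For TIM44, S9, the alpha subunit and TIM50 the lowest ratio was in control replicate 3, and for Tim17-B it was in control replicate 2. S24 differed, with its lowest ratio in asarone replicate 1. In all 6 proteins the 2 groups of ratios overlapped.

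**Figure D4:**
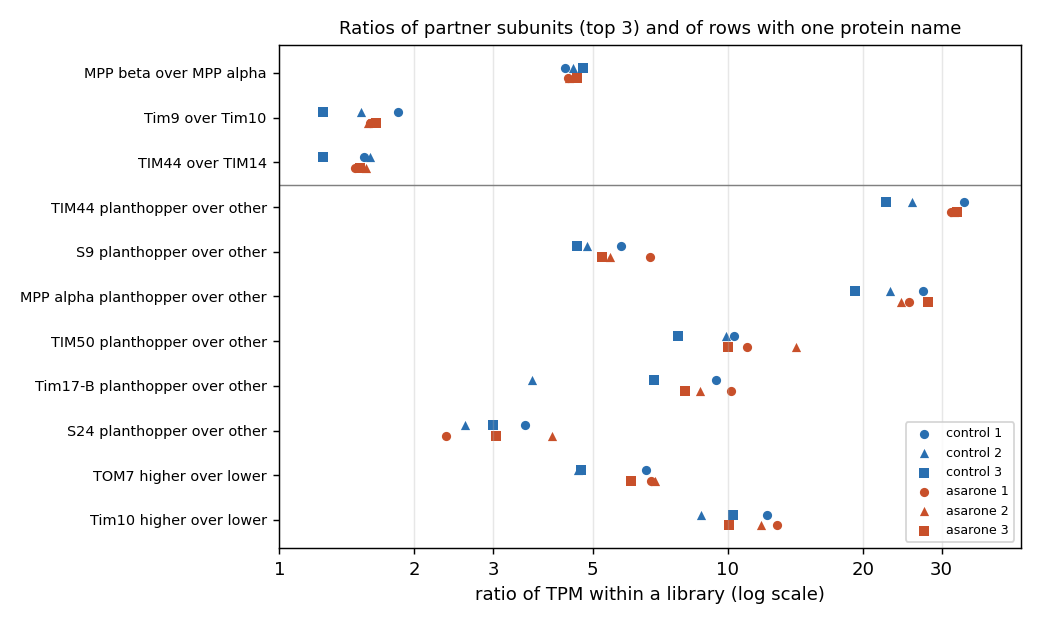
Ratio of TPM within each library, on a log axis, for partner subunits (top 3 lines) and for rows that carry the same protein name (below), with control libraries in blue and asarone libraries in red. The peptidase ratio stays within 4.33 to 4.75, whereas that of Tim9 to Tim10, also partners, spans 1.25 to 1.84. Ratios of planthopper rows to rows matched to other animals include 22.5 to 33.6 for TIM44 and 3.66 to 10.2 for Tim17-B, whose 3.66 is in control replicate 2.

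Neighbouring parts of the same pathway gave no call either. Mitochondrial proteases, which remove faulty proteins, had 13 tested rows with 0 called, 5 above and 8 below 0. The planthopper row of the mitochondrial Lon protease (TRINITY_DN43191_c0_g1) was at 8.23 ± 0.593 and 9.25 ± 0.272 TPM, with every asarone value above every control value (limma, unadjusted p = 0.282, adjusted p = 0.98). Of all tested planthopper rows, 4.21% were higher in treated insects without overlap. Another Lon row (TRINITY_DN5301_c0_g2, matched to the abalone Haliotis rubra) went the other way, at 1.17 ± 0.262 and 1.01 ± 0.0643 TPM, and the groups overlapped. The AFG3-like protease (TRINITY_DN51044_c0_g1, matched to Hydra vulgaris) was at 1.60 ± 0.0781 and 1.26 ± 0.229 TPM, with every asarone value below every control value (limma, unadjusted p = 0.264, adjusted p = 0.98). Mitochondrial chaperones had 3 tested rows with 0 called. The planthopper row of the 10 kDa chaperonin (TRINITY_DN8460_c0_g1) was at 118 ± 11.6 and 120 ± 6.86 TPM, and the row matched to Hydra vulgaris (TRINITY_DN24195_c0_g1) at 41.5 ± 6.34 and 29.0 ± 5.91 TPM, without overlap (limma, unadjusted p = 0.04, adjusted p = 0.98). Of all tested rows with a match outside planthoppers, 17.3% were lower in treated insects without overlap. Mitochondrial tRNA ligases, which charge the transfer RNAs used by this ribosome, had 6 tested rows with 0 called, 4 above and 2 below 0. Mitochondrial translation factors and mitochondrial transcription each had 1 tested row, both below 0 and not called. Insertion factors and carriers had 3 tested rows, all above 0, with 0 called. In the proteases, the tRNA ligases and the carriers, 1 row each of those above 0 was found in asarone replicate 2 only. OXA1L (TRINITY_DN4342_c0_g1), which inserts newly made subunits into the inner membrane, was at 5.48 ± 0.735 and 6.09 ± 0.178 TPM.

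The list of the respiratory chain, to which the mitochondrial ribosome contributes subunits, had 61 tested rows, 2 of them assembly factors. Of the 61 rows, 44 were below 0, with a median of -0.09 and 0 called. Cytosolic ribosomal proteins had 168 tested rows with 122 below 0, a median of -0.12 and 0 called. Of the rows above 0, 3 in the respiratory list and 23 in the cytosolic ribosomal list were found in asarone replicate 2 only. With planthopper matches alone, the medians were -0.05 over 34 respiratory rows and -0.10 over 63 cytosolic ribosomal rows, beside 0.01 over the 24 mitochondrial ribosome and import rows. These medians were not tested against each other. Both lists hold several rows for some proteins, such as ATP synthase subunit alpha, so their rows are not separate proteins. The respiratory rows also include cytochrome c oxidase subunits coded in the mitochondrial genome.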

How the data were processed

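Poly(A) libraries that keep strand were made from whole insects, per the labels' protocols. Tools named in the submitters' processing notes, with no roles, are DESeq2, edgeR, StringTie 1.3.4d, HISAT2 2.0.4 and cutadapt 1.9. Build and quantifier were not given in the sources used here. Deposited values are TPM with 2 decimals: although named FPKM, every library has the same total within rounding. The authors' group means were not used. Members and lists were chosen with earlier results of these data known. The test took the 24816 rows averaging 1 TPM or more and used limma 3.58.1 in R 4.3.3 with trend and robust on log2(TPM + 1). It was two-sided, p-values were Benjamini-Hochberg adjusted over all tested rows, and the threshold was 0.05. The scale understates changes of low rows. The procedure was tested on simulated data with independent noise and with changes planted only in rows of at least 5 TPM. That test does not cover lower rows or libraries that stand apart. Between any 2 libraries, 1.43% to 2.69% of tested rows had the same value, so none was taken as a repeat. Named were all TOM, TIM, peptidase and prohibitin rows, the 3 most and 2 least abundant rows of each ribosomal subunit, rows with an unadjusted p under 0.05, and rows of at least 5 TPM without overlap; the other ribosomal rows, Lon, AFG3, the 10 kDa chaperonin rows and OXA1L were chosen after their values were seen. Alternatives were pseudocounts of 0.1 and 0.5, other filters, 3 scalings, a replicate block, plain limma, planthopper matches only, summed rows, leaving out rows found in 1 library only (2 TPM or more there, and elsewhere no more than 5% of it) and leaving out each library. Figures used matplotlib 3.10.9.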

Additional observations from a re-analysis of the deposited data

How the results depend on the processing

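The number of the 43 tested rows past the threshold was 0 in all 19 alternatives, 0 to 0 on leaving out single libraries. The median change of the set relative to all tested rows was -0.11; it ranged from -0.26 (without control replicate 1) to 0.01 (without control replicate 2) on leaving out single libraries, and was -0.04 without both libraries that stand apart, an alternative chosen after seeing the data, as was the split by matches outside planthoppers. The log2 changes were -0.61 to -0.32 for Tim22, 0.67 to 1.32 for TIM50-C TRINITY_DN7835_c0_g2 and 0.16 to 0.31 for the mantis-matched S24. These rows passed in none of the alternatives run (adjusted p 0.677 to 1). Because their groups did not overlap, leaving out libraries or changing the pseudocount could not turn a sign. Other test settings and filters leave a row's log2 change as it is. Among the alternatives that keep each of these rows separate, only the scalings could have turned these signs, and they did not. Under them Tim22 stood at -0.46, this TIM50-C row at 0.72 to 0.75 and S24 at 0.16 to 0.18. Tim22 and this TIM50-C row fell below the stricter filter of 5 TPM and were not tested there. Summing rows of one description merged this TIM50-C row with others, so it had no change of its own there. The 4 TIM50-C rows together stood at 26.5 ± 3.05 TPM in control libraries and at 24.7 ± 3.28 TPM in asarone libraries. The rise of the single row was thus not seen in the sum. The ratio of summed TPM was 1.00 for the large subunit, and became 0.920 with median-of-ratios scaling, 0.931 with the trimmed mean and 0.949 with quantile normalization. For the small subunit it was 1.04, and became 0.964 and 0.975 after the former pair of scalings. For import rows it was 1.03, and became 0.952 with median-of-ratios scaling. These sums thus stand above or below 1 by the scaling chosen. The ratio for the peptidase and prohibitin-interactor rows, whose sum is mostly the main beta row, was 0.784 to 0.931 in the 15 alternatives run. The median of rows matched outside planthoppers, relative to all tested rows, was -0.41 to -0.07. No label says that the replicate numbers pair libraries, so they were not taken as pairs. Deviations of same-numbered libraries correlated at 0.157, 0.0814 and -0.035, and those of unlike-numbered libraries at -0.139 to 0.0613. These few values cannot settle whether the numbers pair libraries. With a replicate block the count of rows past the threshold was 0. The numbers are balanced over the groups, so a block leaves every log2 change as it was. The median change of -0.11 therefore could not move. TPM keeps no depth, so what depth limits is unknown.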

Other observations

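The S24 rows, summed after their values were seen, stood at 26.8, 22.1 and 25.7 TPM in controls 1, 2 and 3 and at 27.4, 36.02 and 30.6 TPM in asarone libraries 1, 2 and 3. Every asarone sum lay above every control sum, the means being 24.9 ± 2.45 and 31.3 ± 4.34 TPM (SD, n = 3). The pair was picked for its values, so no test is given. Outside the named set, 3 rows for mitochondrial proteins were listed at 0 in 5 libraries and above 10 TPM in asarone replicate 2. They were the ADP/ATP carrier (TRINITY_DN27358_c0_g1, matched to the horseshoe crab Limulus polyphemus) at 27.3 TPM, the inner-membrane protease YME1L1 (TRINITY_DN48769_c0_g1, matched to a lancelet) at 13.2 TPM and an isoleucine tRNA ligase (TRINITY_DN49685_c0_g1, matched to the brachiopod Lingula) at 10.8 TPM. None of the 45 ribosome and import rows was found in asarone replicate 2 only; 1 of them, a TIM50-C row, was found in control replicate 1 only.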
